A study of Arabidopsis thaliana with 6 samples.

Results

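The genes described here are the WRKY and NAC transcription factor genes that the array annotation names singly: 6 WRKY genes and 1 NAC gene, 7 of the 13286 genes named singly on this array. They were chosen by symbol, as probe sets annotated to 1 gene whose symbol holds WRKY or NAC followed by a digit. The rule itself used no measured value, though it was set with earlier results of these data known. Each of the 7 had 1 probe set. The WRKY genes were WRKY6 (AT1G62300), WRKY20 (AT4G26640), WRKY22 (AT4G01250), WRKY42 (AT4G04450), WRKY47 (AT4G01720) and WRKY53 (AT4G23810). The NAC gene was NAC014 (AT1G33060). The gene table holds 67 WRKY and 81 NAC symbols, so most of both families are not analysed here, and the NAC family is described by a single gene.

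WRKY proteins are plant transcription factors that bind the W box, a short promoter element found in many defence genes and in many WRKY genes themselves. They act below pattern-recognition receptors and MAP kinase cascades, and several also regulate leaf senescence and the response to phosphate shortage. NAC proteins share an N-terminal DNA-binding domain and act in stress, senescence, organ boundaries and wood formation. Some NAC proteins are anchored in a membrane and reach the nucleus only after they are cut free. Transcripts of many early stress regulators accumulate when cell walls are digested or when protein synthesis is blocked.

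The samples were Arabidopsis thaliana root protoplasts, cells freed of their walls, from roots treated with nitrate. All of them carried a plasmid from which HRS1 (AtNIGT1), a GARP transcription factor of nitrate signalling, was expressed from the CaMV 35S promoter, fused to the glucocorticoid receptor (GR). All were kept in nitrate and in 35 µM cycloheximide (CHX), which blocks translation, and transfected cells were sorted by red fluorescence. The −DEX group (3 arrays) had no dexamethasone, and the +DEX group (3 arrays) had 10 µM dexamethasone, a glucocorticoid that lets the fusion enter the nucleus. The fusion was made transiently from a strong promoter, so its amount need not be that of native HRS1. No arrays without CHX and none of cells with DEX but without the fusion were analysed here, so a level cannot be assigned to CHX, and HRS1 entry and DEX itself cannot be told apart.

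Each RNA sample was measured on 1 ATH1 array, and 22746 probe sets were tested. The median deposited intensity ranged from 66.3 to 92.9, and a common median was set for all arrays before log2 was taken. Background was set, on each array, at the 95th percentile of 27 probe sets for Bacillus control transcripts, which lay at log2 values of 5.07 to 6.59. The array of −DEX replicate 1 stood apart, with a mean Spearman correlation of 0.708 with the others, against 0.777 to 0.822 for the remaining 5. It also had the highest ratio of 3′ to 5′ signal for the ubiquitin control, 18.6 against 5.45 to 8.85, and the lowest for the GAPDH control, 2.12 against 2.31 to 3.66. The differences of the 7 genes without this array are given with the results. Of the 14 root markers listed, 3 had a probe set that the annotation names singly. The others may lie among probe sets that it does not list or gives to several genes. PYK10, a root beta-glucosidase, lay above background on all 6 arrays. The root hair gene EXPA7 and the cortex gene CO2 lay under it on all 6. The leaf marker RCA lay above it on 3 of 6 arrays. Nothing in the labels says that replicates were separate cultures, and the spread behind the p-values may therefore be technical.

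The WRKY genes analysed here were mostly well detected in the CHX-treated protoplasts, which does not speak for the rest of the family. Of the 6 WRKY genes, 5 lay above background on all 6 arrays and 1, WRKY42, lay under it on all 6. Over all probe sets tested, 33.4% were above background on every array and 19.4% were under it on every array. WRKY53 and WRKY6 belonged to the brightest 10% of the array by mean level, a band that holds 10% of all probe sets by its definition. NAC014 lay above background on 4 of 6 arrays. A probe set's brightness depends on its probes as well as on its transcript, so these bands place each probe set within its array and do not rank the genes by transcript number.

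**Figure D1:**
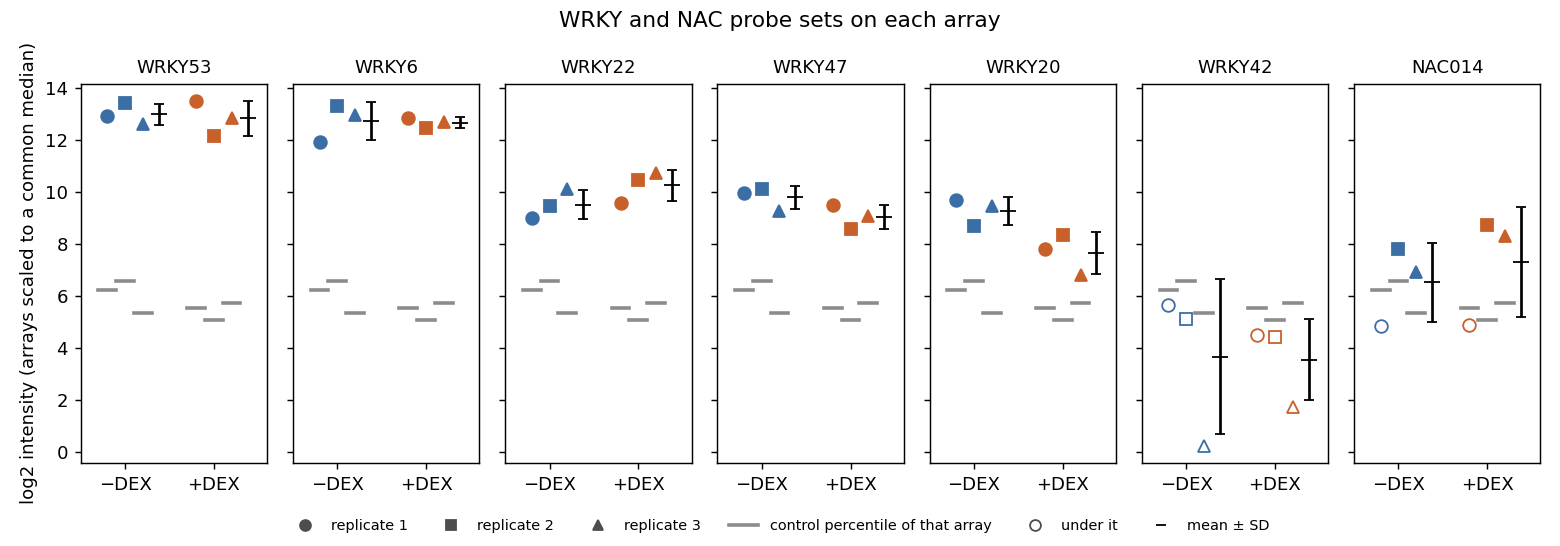
The log2 intensity (vertical axis, arrays scaled to a common median) of the 7 probe sets is plotted for the 3 −DEX arrays (blue) and the 3 +DEX arrays (orange), with 1 symbol shape per replicate number. Black bars give the mean ± SD of 3 arrays, grey bars the background of that array, and open symbols lie under it. WRKY42 lies under background on every array, NAC014 does so on both arrays of replicate 1, and WRKY20 is the 1 gene whose groups do not overlap.

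With DEX, 0 of the 7 genes passed the threshold of a limma adjusted p under 0.05 over all probe sets, by which 0.119% of probe sets were called, all of them lower. Those 27 calls themselves fell to 0 without −DEX replicate 2, to 3 and 4 without +DEX replicate 1 or 3, and to 12 without −DEX replicate 1, and rose to 46 without −DEX replicate 3. At an unadjusted limma p under 0.05 there was 1 of the 7, WRKY20, where 6.6% of all probe sets lay under that value. The same gene was the 1 of 7 whose groups did not overlap, against 12.5% of all probe sets. A count of 1 is the smallest above 0 that 7 genes can give, so these counts do not set the WRKY and NAC genes apart. Among the WRKY genes the +DEX mean was the lower for 5 and the higher for 1, and their median log2 difference was −0.13, beside −0.10 over all tested probe sets. That WRKY median turned to 0.06 after quantile normalization, 0.07 with values as deposited and 0.15 without −DEX replicate 2, and moved to −0.67 without −DEX replicate 3 and −0.53 without +DEX replicate 1. Without −DEX replicate 1, the array that stood apart, the WRKY median was −0.33. The differences of WRKY53, WRKY22, WRKY47 and WRKY20 were then −0.18, 0.49, −0.66 and −1.42.

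WRKY53, a group III factor that promotes leaf senescence and acts in defence, was among the brightest probe sets of every array. Its log2 intensities were 12.93, 13.44 and 12.62 without DEX and 13.52, 12.18 and 12.86 with DEX. The highest and the lowest of the 6 were both +DEX arrays, and the groups overlapped. Its deposited intensity ranged from 5398 to 11585, and it lay between the 96.9th and the 98.5th percentile of its array. Its range over the 6 arrays was 1.33 log2 units, beside a median range of 1.27 among 1627 probe sets within 5 percentile points of its mean level.

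The difference of WRKY53 with DEX was −0.14 ± 0.40 (log2, SE; limma adjusted p = 0.96). Its 95% interval ran from −1.01 to 0.72, that is from 2.01-fold lower to 1.64-fold higher, so these arrays leave room for a change of that size. The sign turned to 0.21 after quantile normalization and 0.05 as deposited, and to 0.08 and 0.19 without replicate 2 of the −DEX or of the +DEX group.

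WRKY6, a group IIb factor of senescence and defence that is also known to repress the phosphate exporter gene PHO1, was similarly bright. Its log2 intensities were 11.92, 13.32 and 12.98 without DEX and 12.87, 12.46 and 12.69 with DEX. The 3 +DEX arrays lay within the span of the −DEX arrays, whose lowest value was that of −DEX replicate 1, the array that stood apart. The SD over 3 arrays was 0.73 in the −DEX group against 0.21 in the +DEX group. Its difference was −0.07 ± 0.40 (log2, SE; limma adjusted p = 0.98), with a 95% interval from −0.94 to 0.80. Without −DEX replicate 1 the difference was −0.48, and it turned to 0.22 and 0.05 without −DEX replicate 2 or 3 and to 0.04 without +DEX replicate 2. Quantile normalization gave 0.24 and the values as deposited 0.12.

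The ratio of the WRKY53 to the WRKY6 signal within an array does not change when the whole array is multiplied by a single factor. The common-median scaling is of that kind, while quantile normalization is not and can change the ratio. On the log2 scale it was 1.01, 0.12 and −0.35 without DEX and 0.65, −0.27 and 0.18 with DEX. The groups overlapped, and replicate 1 was the highest in each group.

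The other group IIb genes differed in detection. WRKY42, which is also known to repress PHO1 and to act on phosphate uptake, was under background on every array, with log2 intensities of 5.65, 5.10 and 0.23 without DEX and 4.48, 4.43 and 1.73 with DEX. Replicate 3 was the lowest in each group. With all 6 values under background no fold is given, and its difference of −0.11 ± 1.57 (log2, SE; limma adjusted p = 0.99) is one of background. It ranged from −1.83 without −DEX replicate 3 to 0.88 without −DEX replicate 1.

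WRKY47, a IIb relative of both, was above background throughout. Its log2 intensities were 9.98, 10.12 and 9.29 without DEX and 9.51, 8.57 and 9.07 with DEX. The groups overlapped through a single pair of arrays, since +DEX replicate 1 lay above −DEX replicate 3. The means were 9.80 ± 0.44 without and 9.05 ± 0.47 with DEX (SD, n = 3 each). The difference was −0.75 ± 0.56 (log2, SE; limma adjusted p = 0.82), with a 95% interval from −1.95 to 0.45, or from 3.87-fold lower to 1.37-fold higher. Leaving out single arrays gave −1.0 to −0.51.

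WRKY22, a group IIe factor that acts below the MAP kinases of flagellin perception, was the WRKY gene with a higher mean with DEX. Its log2 intensities were 9.01, 9.45 and 10.11 without DEX and 9.58, 10.48 and 10.74 with DEX. The +DEX replicates 2 and 3 lay above all −DEX arrays, while +DEX replicate 1 lay below −DEX replicate 3. The means were 9.52 ± 0.55 without and 10.26 ± 0.61 with DEX (SD, n = 3 each). Its difference was 0.74 ± 0.55 (log2, SE; limma adjusted p = 0.82), with a 95% interval from −0.43 to 1.92. It was positive in each setting run, at 0.49 to 1.09 with single arrays left out, and passed the threshold in none of them.

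WRKY20, a group I factor, a class whose proteins carry a pair of WRKY domains, had the largest difference of the 7 genes. Its log2 intensities were 9.68, 8.68 and 9.46 without DEX and 7.82, 8.35 and 6.79 with DEX. The groups did not overlap: all +DEX values were the lower ones, by a margin of 0.33 between the nearest pair (−DEX replicate 2 and +DEX replicate 2). In deposited intensity the values were 739.2, 339.6 and 774.6 without DEX and 223.6, 379.4 and 117.4 with DEX. As deposited, +DEX replicate 2 therefore lay above −DEX replicate 2, and the groups overlapped.

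The means of WRKY20 were 9.27 ± 0.53 without and 7.65 ± 0.80 with DEX (SD, n = 3 each), a difference of −1.62 ± 0.68 (log2, SE), or 3.08-fold. The unadjusted limma p was 0.032 and the limma adjusted p over all probe sets was 0.75, so this difference did not pass. The 95% interval, unadjusted, ran from −3.09 to −0.16. An exact permutation test of the 3 against 3 arrays (two-sided) gave p = 0.1, the smallest that this design allows. The difference was −1.67 after quantile normalization, −1.43 as deposited and −1.97 to −1.19 with single arrays left out. Its place in the array's brightness order was the 74.2nd to the 84.4th percentile without DEX and the 54.9th to the 72.4th with it. Its range over the 6 arrays, 2.90 log2 units, exceeded that of 66.1% of the 2274 probe sets of like level.

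**Figure D2:**
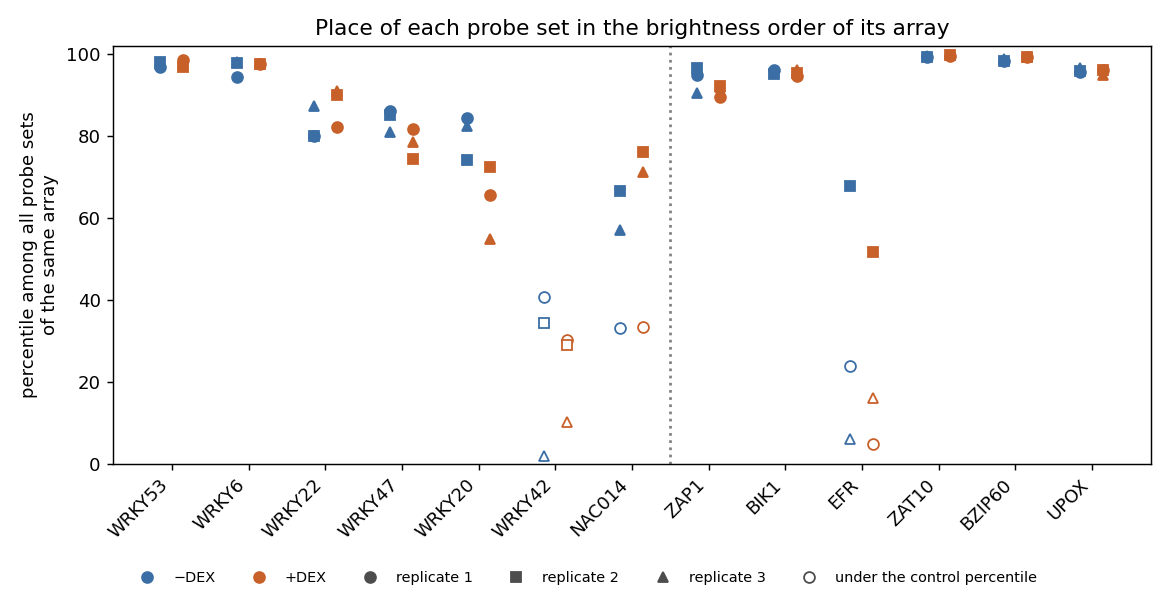
The percentile of each probe set among all tested probe sets of the same array (vertical axis, 0 to 100) is plotted for the 7 WRKY and NAC genes, left of the dotted line, and for 6 related genes, right of it. Points are single arrays, blue for −DEX and orange for +DEX, and open symbols lie under background. WRKY53 stays between 96.9 and 98.5, WRKY20 spans 54.9 to 84.4, and NAC014 has both replicate 1 arrays near 33.

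NAC014, counted among the membrane-tethered NAC proteins, had log2 intensities of 4.84, 7.82 and 6.94 without DEX and 4.88, 8.75 and 8.33 with DEX. Replicate 1 lay under background in both groups, and the other replicates lay above it. The means were 6.53 ± 1.53 without and 7.32 ± 2.12 with DEX (SD, n = 3 each). The difference was 0.78 ± 1.16 (log2, SE; limma adjusted p = 0.92), with a 95% interval from −1.70 to 3.27. It depended on the replicate 1 arrays, at −0.06 without −DEX replicate 1 and 2.0 without +DEX replicate 1, and it was 1.43, 0.07 and 0.28 without −DEX replicate 2, +DEX replicate 2 or +DEX replicate 3. With the replicate number as a block the limma adjusted p was 0.90. Its range of 3.91 log2 units exceeded that of 67.2% of the 2274 probe sets of like level.

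A further WRKY gene appears in the annotation under another symbol and falls outside the choice by symbol. ZAP1 (AT2G04880), listed with the synonym WRKY1, was looked up after the data were seen. Its log2 intensities were 12.08, 12.74 and 10.62 without DEX and 10.60, 10.83 and 10.93 with DEX. The −DEX replicates 1 and 2 were high, while −DEX replicate 3 lay among the +DEX arrays. Its difference was −1.03 ± 0.52 (log2, SE; limma adjusted p = 0.76), with a 95% interval from −2.14 to 0.09. It was −0.57 without −DEX replicate 2 and −1.63 without −DEX replicate 3.

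**Figure D3:**
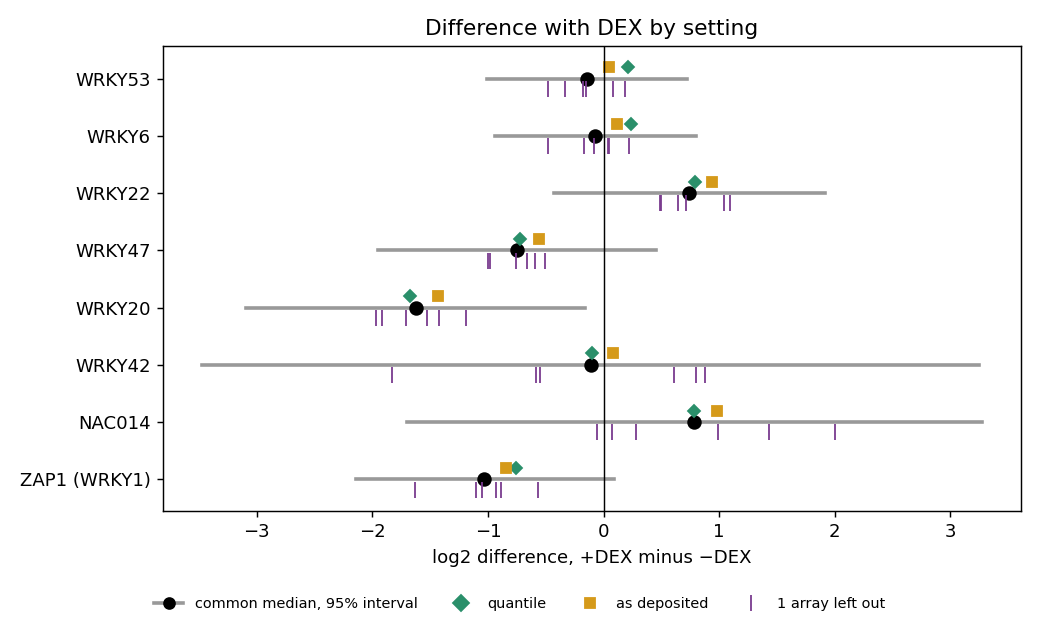
The log2 difference, +DEX minus −DEX (horizontal axis), is plotted for the 7 genes and ZAP1, as a black point with its unadjusted 95% interval (grey line) from limma. Green diamonds are values after quantile normalization, yellow squares values as deposited, and purple ticks values with 1 of the 6 arrays left out. WRKY53 and WRKY6 lie close to 0 and change sign with the scaling, and WRKY20 keeps a negative value from −1.97 to −1.19 when single arrays are left out.

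The 6 lists of related genes held genes that act with WRKY and NAC factors, other early stress regulators, and 23 NAC genes usually under other symbols. Of those 23 NAC genes, 0 had a probe set that the annotation names singly. Over all 73 loci of the 6 lists, 5 had one. Of these 5, 0 passed the threshold in either direction. Upstream of WRKY factors, BIK1, a cytoplasmic kinase that relays signals from immune receptors, was above background on all arrays, at 12.18 ± 0.34 in the −DEX and 11.81 ± 0.25 in the +DEX group (mean and SD of log2 intensity, n = 3 each). Its difference was −0.37 ± 0.38 (log2, SE), and −0.06 after quantile normalization, −0.18 as deposited, −0.22 without −DEX replicate 1 and −0.56 without −DEX replicate 3. EFR, the receptor for bacterial elongation factor Tu, was above background only on replicate 2 of each group, with log2 intensities of 3.86, 7.97 and 1.12 without and 1.01, 6.47 and 2.50 with DEX. Its difference of −0.99 ± 1.81 turned to 0.84 without −DEX replicate 2 and 0.17 without +DEX replicate 1, and was −2.58 without −DEX replicate 3 and −2.56 without +DEX replicate 2.

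Of the other early stress regulators listed, both that the annotation names singly lay near the top of their arrays. ZAT10, a zinc finger repressor of stress responses, lay at or above the 99.2nd percentile on every array, and its range over the 6 arrays was 0.40 log2 units, smaller than in all but 0.97% of the probe sets of like level. BZIP60, a bZIP factor of the unfolded protein response, had log2 intensities of 13.70, 13.78 and 13.62 without and 14.55, 13.77 and 14.31 with DEX. The groups overlapped only through −DEX replicate 2 and +DEX replicate 2, by 0.01. The difference was 0.51 ± 0.31 (log2, SE; limma adjusted p = 0.79), which quantile normalization took to 0.86. In deposited intensity the groups did not overlap, at 11649 to 13817 without and 16185 to 23667 with DEX. As deposited the difference was 0.70 and did not pass either (limma adjusted p = 0.74). UPOX, a mitochondrial protein induced by oxidative stress and associated with NAC factors of mitochondrial signalling, had 12.37, 12.47 and 12.20 without and 12.12, 11.92 and 11.63 with DEX. Its groups did not overlap, by a margin of 0.08 between the nearest pair, and 12.5% of all probe sets likewise had groups without overlap. The difference of UPOX was −0.46 ± 0.37 (log2, SE; limma adjusted p = 0.82). It was −0.14 after quantile normalization and −0.26 as deposited. In such a bulk measurement of sorted cells, fewer cells that express a gene and less RNA per cell cannot be told apart.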

How the data were processed

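RNA was taken with TRIzol and labelled with a kit that primes at the 3′ end, per the labels' protocols. The authors deposited 1 linear intensity per probe set and array, with a 2% trimmed mean of 500 on every array. The step from probes to probe sets is not stated in the sources. The titles gave each sample its group and replicate number.

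The table holds 22810 probe sets, and its 64 Affymetrix control probe sets stayed out of the test. Arrays were scaled to a common median, values floored at 1 and log2 taken. The test was limma 3.58.1 in R 4.3.3 with the group as the single term (lmFit) and a mean-variance trend (eBayes). It was two-sided and adjusted by Benjamini-Hochberg over all 22746 probe sets. A trial on simulated data held only decreases, each larger than any difference of the WRKY and NAC genes on all arrays. That trial therefore does not show whether changes of their size would be called. The number of arrays limits the precision.

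Names came from the array annotation, with symbols updated through gene IDs from the TAIR10.1 gene table, whose coordinates are not printed. A single named gene was found for 13436 tested probe sets and several for 503, and 8730 were not listed. The rule for naming genes (members past the threshold, the brightest and those of smallest p per family, fixed symbols, up to 3 per role list and up to 4 per pathway list) took in all 7 genes. The members and lists were chosen with earlier results of these data known. Alternatives covered scaling, filter, floor, variance model, array weights, replicate block, background level and each array left out. No sequence table was at hand.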

Additional observations from a re-analysis of the deposited data

How the results depend on the processing

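In every setting run, 0 WRKY and 0 NAC genes were called in either direction, and the lowest limma adjusted p of a member was 0.49. The other background levels (99th percentile and highest Bacillus control) and each array left out kept 5 WRKY genes above and 1 under background on all arrays. Of 323 pairs of a result and a setting, 302 kept direction and call, 3 of them with a moved WRKY median (−0.33, −0.67 and −0.53 without −DEX replicate 1, −DEX replicate 3 and +DEX replicate 1). Matching symbols with case and averaging probe sets of a gene could change nothing, since the same 7 probe sets resulted. Both settings are counted among the 302 pairs, although their agreement was fixed in advance. The pairs also hold gene counts, many of them 0, which have no direction, and they hold NAC014 again as the NAC median. That median counted as unmoved at 2.0, 0.07 and 0.28 with single arrays left out, from 0.78 on all arrays. For single genes only sign and call were compared, so the tally does not measure how far values moved. WRKY42 and EFR could not be tested without the dimmest 40%.

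In the other 21, values that were not called turned sign, and the cause was not tested. Under quantile normalization the WRKY median was 0.06, WRKY53 0.21 and WRKY6 0.24, and as deposited they were 0.07, 0.05 and 0.12, with WRKY42 at 0.08 (0.16 with array weights). Over all probe sets the median difference moved from −0.10 to 0.01 by quantile normalization and to 0.09 without further scaling. With single arrays left out, the WRKY median ranged from −0.67 to 0.15, the NAC median (NAC014) from −0.06 to 2.0, WRKY53 from −0.48 to 0.19, WRKY6 from −0.48 to 0.22, WRKY42 from −1.83 to 0.88 and EFR from −2.58 to 0.84.

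Same-numbered arrays had deviations from their group means that correlated at 0.025, −0.0051 and 0.014. Values this near 0 gave no sign of pairing by number, but they cannot exclude it. The labels state no pairing. With the number as a replicate block, 0 members and 33 probe sets in all (27 without it) were called, and the limma adjusted p of WRKY20 was 0.70. ZAP1 was added after seeing the data. Signal over background limits WRKY42, NAC014 and EFR. Probe sets called lower numbered 0 with eBayes without trend and 0 with a floor at a log2 of 5.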
